A study of Homo sapiens with 12 samples.

Results

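The non-clustered protocadherins PCDH1, PCDH7, PCDH8, PCDH9, PCDH10, PCDH17, PCDH18 and PCDH19 were followed in HAP1 cells with and without SETDB1. They were taken by symbol as 8 protocadherin genes that lie outside the protocadherin clusters of chromosome band 5q31, among the 58735 genes of the count tables, whose Ensembl identifiers were matched to GENCODE release 29. RNA sequencing had been carried out on wild-type HAP1, a near-haploid human cell line that goes back to a chronic myelogenous leukemia, and on its SETDB1 knockout derivative. SETDB1 is a histone methyltransferase that places methyl groups on lysine 9 of histone H3. Each genotype had 3 libraries from a non-directional kit, in which the strand of the transcript is lost, and 3 from a directional kit that preserves it. The labels give no treatment, and they do not say how many knockout clones were used or how SETDB1 was disrupted, so a difference between the genotypes cannot be told apart from a difference between the cell clones.

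Protocadherins are single-pass membrane proteins of the cadherin superfamily whose outer repeats bind the same protein on a neighbouring cell. The clustered genes lie side by side in alpha, beta and gamma clusters, and those of the alpha and gamma clusters share constant exons, whereas each non-clustered gene stands alone. The non-clustered genes are grouped by sequence into delta1 protocadherins (here PCDH1, PCDH7 and PCDH9), which have the longer outer region and a tail that binds protein phosphatase 1, and delta2 protocadherins (PCDH8, PCDH10, PCDH17, PCDH18 and PCDH19), several of which recruit the actin-nucleating WAVE complex. Both groups are best known from the developing nervous system, where they take part in cell sorting, axon growth and synapse formation.

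The 8 genes lie at separate places in the genome, 3 of them on chromosome 4, 3 on chromosome 13, 1 on chromosome 5 and 1 on chromosome X. RefSeq promoters (GRCh38.p14, 35116 genes) were matched for 7 of the 8 members, all but PCDH10 (chr4:133149315-133208606, plus strand). The 250 bases before the start site of 4 members are shown to let the start regions be compared: PCDH7, which fell most, PCDH18, which had the highest level, PCDH19, which had the most CG dinucleotides, and PCDH8, which did not pass the filter on low counts. They are written 5′ to 3′ on the strand of the gene, with CG dinucleotides, the sites of DNA methylation, in capitals. The PCDH7 stretch is chr4:30720119-30720368 on the plus strand, and those of PCDH18 (chr4:137532495-137532744), PCDH19 (chrX:100410274-100410523) and PCDH8 (chr13:52848641-52848890) are on the minus strand.
PCDH7: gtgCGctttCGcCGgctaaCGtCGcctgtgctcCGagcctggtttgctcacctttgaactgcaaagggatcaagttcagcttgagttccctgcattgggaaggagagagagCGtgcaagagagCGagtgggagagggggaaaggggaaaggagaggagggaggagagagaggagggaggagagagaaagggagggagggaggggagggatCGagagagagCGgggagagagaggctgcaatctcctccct
PCDH18: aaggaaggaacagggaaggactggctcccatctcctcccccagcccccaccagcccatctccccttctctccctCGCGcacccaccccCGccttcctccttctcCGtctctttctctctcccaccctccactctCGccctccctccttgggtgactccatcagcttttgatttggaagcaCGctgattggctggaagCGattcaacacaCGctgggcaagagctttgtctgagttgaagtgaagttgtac
PCDH19: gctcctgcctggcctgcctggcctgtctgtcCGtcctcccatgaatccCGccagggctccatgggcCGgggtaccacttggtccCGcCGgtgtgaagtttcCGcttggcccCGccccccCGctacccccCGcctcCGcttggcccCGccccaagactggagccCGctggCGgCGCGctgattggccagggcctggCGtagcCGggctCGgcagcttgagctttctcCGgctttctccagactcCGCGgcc
PCDH8: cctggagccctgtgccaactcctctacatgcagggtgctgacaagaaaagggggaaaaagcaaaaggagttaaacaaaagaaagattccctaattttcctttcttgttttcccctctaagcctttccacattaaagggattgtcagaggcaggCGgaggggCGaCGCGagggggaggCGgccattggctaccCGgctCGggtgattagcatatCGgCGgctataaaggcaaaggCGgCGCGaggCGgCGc

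The 7 matched promoters held between 6 (PCDH1) and 21 (PCDH19) CG dinucleotides in 250 bases, beside a median of 11 over all promoters. PCDH7 and PCDH17 had 10 each, PCDH18 had 8, PCDH8 had 14 and PCDH9 had 20. Members above and below the median number of CG dinucleotides were both among the genes that fell. Since every tested member fell, a link between this number and the change was not tested. Motifs were searched on both strands as exact letters. CCAAT was found in each matched promoter except that of PCDH1, and in 32% of all promoters. GGGCGG, the core of the Sp1 site, was found in PCDH1, PCDH9 and PCDH19, with 2 matches each, and in 42.6% of all promoters. TATAAA was found in PCDH8 only among the 7, and in 10.7% of all promoters. CACGTG was found in none of the 7, and in 6.34% of all promoters. The RefSeq start of PCDH1 lies 9619 bases from the start of its GENCODE gene model, so the PCDH1 window belongs to an inner start site. For the other 6 the starts of both annotations lay within 109 bases.

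Total gene counts were 8921959 to 10199215 per non-directional library and 532021 to 676691 per directional library. A floor of 3 counts corresponded to 0.294 to 0.336 counts per 1000000 gene counts (CPM) and to 4.43 to 5.64 CPM respectively. SETDB1 itself was at 60.0 ± 4.36 CPM in the wild type and 11.5 ± 0.637 CPM in the knockout (non-directional kit; SD, n = 3 each), and its log2 fold change was -2.39 (edgeR adjusted p = 7.02e-43). The 3 non-directional knockout libraries differed by no more than sampling noise (chi-square per degree of freedom 0.956 to 0.991), while the wild-type pairs gave 1.03 to 2.00, with replicate 2 the most distant. The spread within the knockout therefore covers little beyond counting, and since the labels call the libraries biological replicates without naming cultures, p-values measure the spread between these libraries.

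The comparison of knockout with wild type asked how the members behaved after loss of SETDB1. In the non-directional libraries 6 of the 8 members passed the filter on low counts, and each of these was lower in the knockout at an edgeR adjusted p under 0.05, with every knockout library below every wild-type library. Among all 13778 genes tested, 25.9% were called lower, and among the 6829 genes with a wild-type level in the range of the tested members 25.6% were. No member was called higher, beside 25.5% of all genes, and groups separated downward in 27% of all genes tested. PCDH7 fell 6.48-fold, and PCDH1, PCDH9, PCDH17, PCDH18 and PCDH19 fell by 1.82-fold to 2.12-fold. PCDH8 and PCDH10 were hardly detected in either genotype. The filter asked for 1.02 CPM, the equivalent of 10 counts, in at least 3 libraries. PCDH1, PCDH9, PCDH17 and PCDH18 met it in all 6 libraries, whereas PCDH7 and PCDH19 passed through the wild type only, so for these 2 a lower knockout value was built into being tested at all. Both were also called lower when the filter was dropped.

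**Figure D1:**
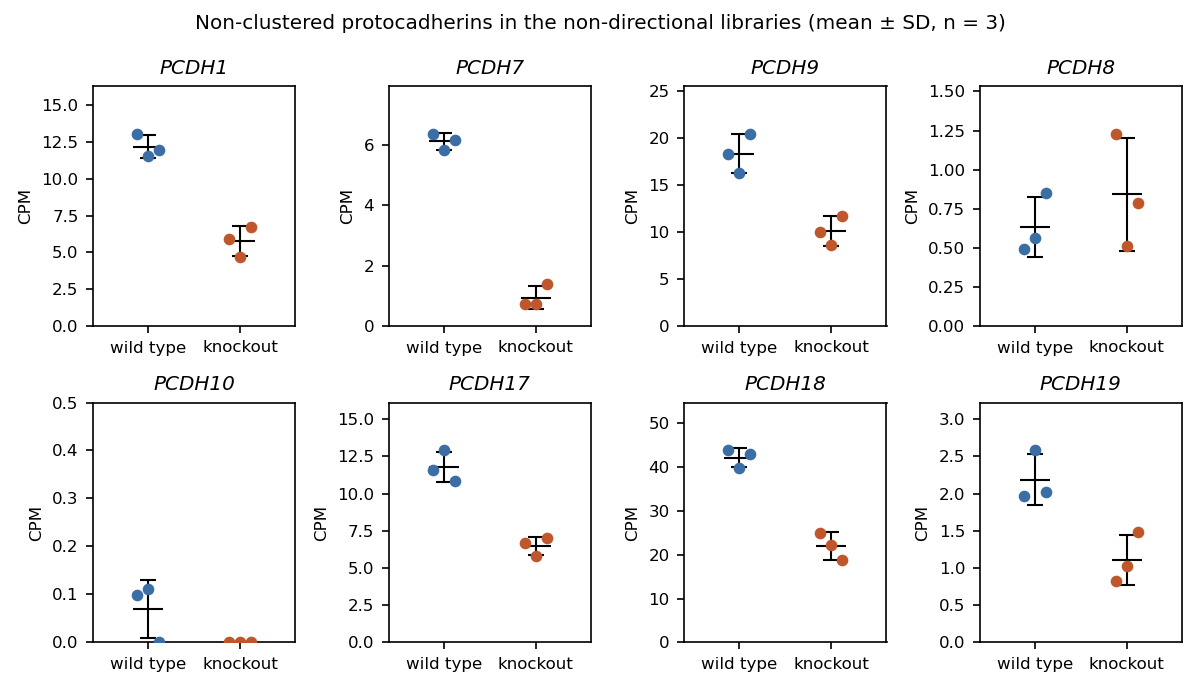
CPM (vertical axes, linear from 0, a separate scale for each gene) of the 8 members in the 3 wild-type (blue) and 3 knockout (orange) non-directional libraries, with the mean and SD in black. For PCDH1, PCDH7, PCDH9, PCDH17, PCDH18 and PCDH19 each orange point lies below each blue point, while those of PCDH8 overlap and PCDH10 is at or near 0.

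Among the delta1 genes, PCDH7 (ENSG00000169851, chr4:30720415-31146805, plus strand) encodes a protein that binds the phosphatase inhibitor SET and protein phosphatase 1. Wild-type replicates 1, 2 and 3 gave 65, 52 and 58 counts, and the knockout replicates gave 7, 7 and 14. This corresponded to 6.37, 5.83 and 6.17 CPM against 0.716, 0.714 and 1.38 CPM. Every knockout library was far below every wild-type library, and replicate 3 was the highest knockout library. The mean fell from 6.12 ± 0.276 to 0.936 ± 0.383 CPM (SD, n = 3 each), which is 15.3% of the wild type. On the log2 scale this was a change of -2.70 (SE 0.243, 95% interval -3.17 to -2.22, edgeR adjusted p = 1.75e-16). Only 178 of the 13778 genes tested (1.29%) had a lower log2 fold change than PCDH7.

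PCDH1 (ENSG00000156453, chr5:141853111-141879246, minus strand) encodes an adhesion protein of airway epithelium that also serves New World hantaviruses as a receptor. Its counts were 133, 103 and 112 for wild-type libraries 1 to 3 and 58, 46 and 68 for the knockout libraries. The groups did not overlap, and the knockout mean was 47.5% of the wild-type mean (12.2 ± 0.778 against 5.77 ± 1.01 CPM, SD, n = 3 each). PCDH1 thus changed by -1.08 on the log2 scale (SE 0.134, edgeR adjusted p = 5.57e-11). PCDH9 (ENSG00000184226, chr13:66302834-67230445, minus strand), which is expressed in neurons and is the longest of the 8 genes with 927612 bases, had 18.3, 16.3 and 20.4 CPM in the wild type. Its knockout libraries had 10.0, 8.57 and 11.7 CPM. Wild-type replicate 2 was the lowest of its group and still lay above each knockout library. PCDH9 changed by -0.87 on the log2 scale (SE 0.109, edgeR adjusted p = 1.02e-10). The exons of PCDH9 share 144 bases with PCDH9-AS1 on the opposite strand, and PCDH9-AS1 had 0 counts in each of the 12 libraries.

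Of the delta2 genes, PCDH18 (ENSG00000189184, chr4:137518918-137532494, minus strand), whose protein binds the adaptor DAB1, had the most reads. Wild-type libraries held 447, 355 and 404 counts and knockout libraries 245, 218 and 191, or 43.8, 39.8 and 43.0 CPM against 25.1, 22.2 and 18.8 CPM. No knockout library reached the lowest wild-type library, and the knockout libraries were further apart from each other than the wild-type ones. The mean fell from 42.2 ± 2.13 to 22.0 ± 3.14 CPM (SD, n = 3 each), a change of -0.95 on the log2 scale (SE 0.0754, edgeR adjusted p = 3.4e-19).

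PCDH17 (ENSG00000118946, chr13:57631810-57729311, plus strand), which brings WAVE proteins to sites of contact between axons, was at 11.6, 12.9 and 10.9 CPM in wild-type libraries and at 6.65, 5.82 and 6.99 CPM after knockout. The groups were separate, and the mean changed from 11.8 ± 1.03 to 6.49 ± 0.604 CPM (SD, n = 3 each), or by -0.86 on the log2 scale (SE 0.130, edgeR adjusted p = 2.57e-08). PCDH19 (ENSG00000165194, chrX:100291644-100410273, minus strand), the gene of an X-linked epilepsy, gave 20, 23 and 19 counts in wild-type libraries and 8, 10 and 15 after knockout. All knockout values lay below all wild-type values, though the counts were few and knockout replicate 3 (1.48 CPM) came near wild-type replicate 1 (1.96 CPM). It changed by -0.97 on the log2 scale (SE 0.302, 95% interval -1.56 to -0.38, edgeR adjusted p = 0.00501), and the DESeq2 Wald test did not call it (adjusted p = 0.106, at a range of 0.00308 to 0.106 over 13 alternatives).

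PCDH8 (ENSG00000136099, chr13:52842889-52848641, minus strand), which is induced by neuronal activity and acts on N-cadherin at synapses, gave 5, 5 and 8 counts in wild-type libraries and 12, 5 and 8 after knockout. The groups overlapped, at 0.634 ± 0.192 and 0.842 ± 0.362 CPM (SD, n = 3 each; two-sided exact permutation p = 0.6). PCDH10 (ENSG00000138650), which binds the WAVE complex through its tail, gave 1, 1 and 0 counts in wild-type libraries and 0 in each knockout library (exact permutation p = 0.4). With 3 against 3 libraries such a test cannot give a p below 0.1. Each PCDH10 value was under the floor of 3 counts, so a difference was not detectable at this depth.

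**Figure D2:**
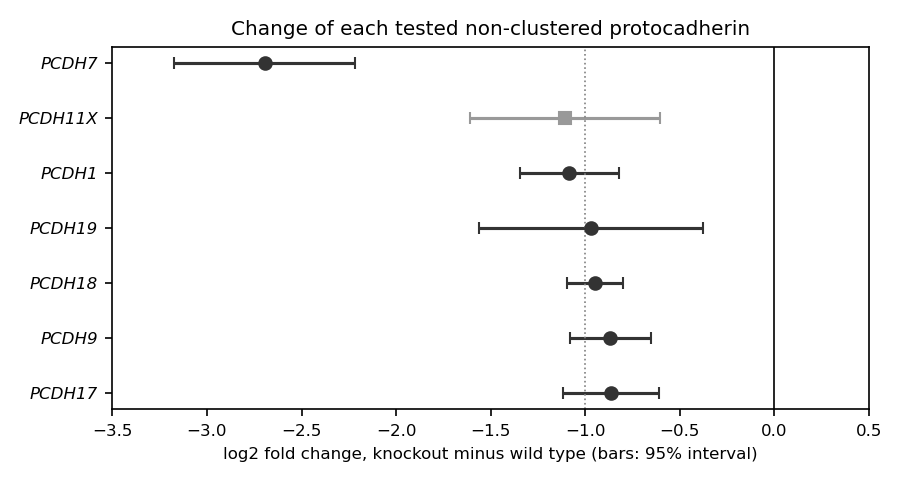
Log2 fold change (knockout minus wild type, horizontal axis) of the 6 tested members (circles) and of PCDH11X (square, a related gene that is no member) from the edgeR fit of the 6 non-directional libraries. Bars are 95% intervals, the dotted line marks -1 and the solid line marks 0. PCDH7, at -2.70, lies apart from the other members, which lie between -1.08 and -0.86 with overlapping intervals.

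Requiring a log2 fold change of -1 or below left PCDH1 and PCDH7 as called, beside 4.18% of all genes tested. The other 4 called members had log2 fold changes of -0.97 to -0.86, just above that line. The median over the 6 tested members was -0.96, beside -0.0012 over all genes tested. It includes PCDH7 and PCDH19, which passed the filter on low counts through the wild type only. The 4 members that met the filter in all 6 libraries had log2 fold changes of -1.08 (PCDH1) to -0.86 (PCDH17). In CPM summed over the 8 members, the wild-type libraries held 89.6 to 95.7 and the knockout libraries 43.6 to 50.4. PCDH18 alone made up 45.1% of the wild-type sum and 46.7% of the knockout sum. Without PCDH18 the sums were 51.3 ± 1.34 and 25.2 ± 3.86 CPM (SD, n = 3 each). The delta1 genes together went from 36.6 ± 2.63 to 16.8 ± 2.91 CPM and the delta2 genes from 56.9 ± 1.02 to 30.5 ± 2.96 CPM (SD, n = 3 each). Fewer cells with a transcript and less of it per cell cannot be told apart in RNA from whole cultures.

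Levels of different genes were compared per 1000 bases of merged exon (CPM per kb). In the wild type PCDH18 led with 6.31 ± 0.319, followed by PCDH1 with 2.06 ± 0.132 and PCDH17 with 1.41 ± 0.124 CPM per kb (SD, n = 3 each). PCDH9 with 0.593, PCDH7 with 0.476 to 0.520 over the libraries, PCDH19 with 0.224, PCDH8 with 0.123 and PCDH10 with 0.00689 CPM per kb came next. The ranges of neighbours in this order did not overlap in the wild type. In the knockout PCDH18 (3.30 CPM per kb) was again the highest, and the ranges of PCDH1 (0.978) and PCDH17 (0.779) overlapped. PCDH9 (0.327) was next. PCDH7 went from the fifth place to the seventh, at 0.0764 CPM per kb, and its range overlapped that of PCDH19 (0.113), which in turn overlapped that of PCDH8 (0.163). Reads are spread over 30944 exon bases in PCDH9 and 5150 in PCDH8, so a level per length of a gene with unused exons is understated.

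The members were also set among the genes around them. Within 5 Mb of PCDH7 there were 5 other tested genes, with a median log2 fold change of -0.07 and a lowest value of -0.96 (SEL1L3). Around PCDH17 the 5 tested neighbours had a median of -0.19, and around PCDH18 the 20 tested neighbours had a median of -0.12. None of the neighbours of PCDH7, PCDH17 and PCDH18 had a log2 fold change as low as the member. The closest tested neighbours lay 3863 kb from PCDH7, 2532 kb from PCDH17 and 709.9 kb from PCDH18. Over all genes tested, 1.29%, 5.07% and 4.48% were lower than PCDH7, PCDH17 and PCDH18. With neighbours so few and so distant, this says little about the immediate surroundings of these members. PCDH9 had 3 tested neighbours with a median of -0.35, of which DACH1, a transcription factor gene, was lower than PCDH9 (-1.20). PCDH19 had 39 tested neighbours with a median of 0.23, and the closest one, TNMD at 174.5 kb, was lower than PCDH19 (-2.73, edgeR adjusted p = 2.15e-11).

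PCDH1 differs from the other members in having the clustered protocadherins beside it. Of its 91 tested neighbours 34 were clustered protocadherins, and 29 of these were called higher in the knockout. For 16 of the 29 a rise was built into being tested, since they passed the filter on low counts through the knockout only. The 17 clustered genes that met the filter in all 3 wild-type libraries held 13 called higher and 1 called lower, PCDHAC2 (-1.76), which passed through the wild type only. Among the other 57 neighbours of PCDH1, 13 were called higher and 14 lower, with a median log2 fold change of -0.01. Over all 13778 genes tested, 25.5% were called higher and 25.9% lower. SPOCK1 (-5.42, edgeR adjusted p = 7.39e-50), one of these 57 neighbours, was lower than PCDH1. Alpha and gamma genes share exons within their cluster, so their single counts are uncertain.

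**Figure D3:**
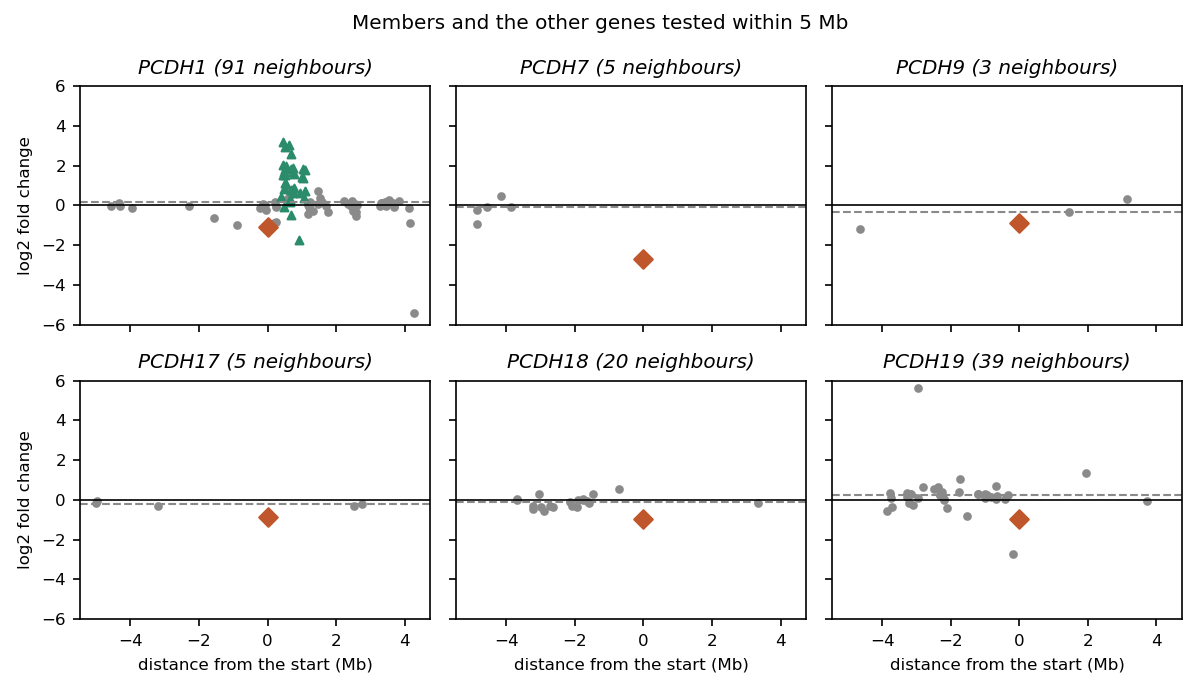
Log2 fold change (knockout minus wild type, vertical axis) of each tested member (orange diamond at 0) and of the other tested genes within 5 Mb, against their distance from the start of the member in Mb (horizontal axis, negative on the upstream side of the member), non-directional libraries. Green triangles are clustered protocadherins and the dashed line is the median of the neighbours; the diamonds lie below that median in all 6 panels.

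**Figure D4:**
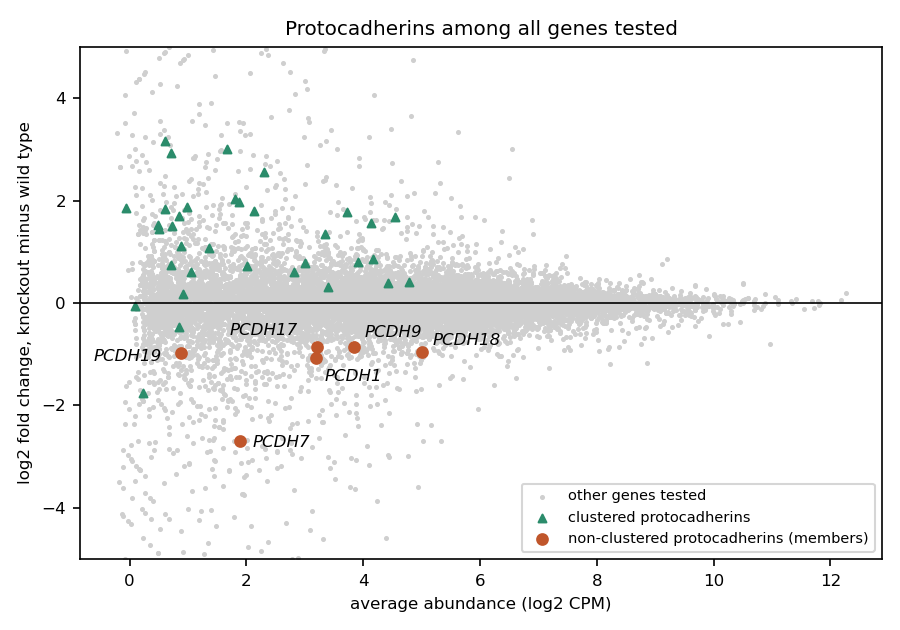
Log2 fold change against average abundance (log2 CPM) for each gene tested with the non-directional kit, with the 6 tested members in orange, the 34 tested clustered protocadherins as green triangles and all other genes in grey. The tested members, 2 of which passed the filter through the wild type only, lie below 0. Most triangles, 16 of which passed the filter through the knockout only, lie above 0. The vertical axis leaves out 112 genes with changes beyond 5 on the log2 scale.

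Of the other non-clustered genes (PCDH11X, PCDH12, PCDH15 and PCDH20), PCDH11X was tested. PCDH11X, a delta1 gene with a near-identical copy elsewhere in the genome and therefore uncertain counts, gave 39, 37 and 21 counts in wild-type libraries and 14, 20 and 13 after knockout. The groups did not overlap in CPM, though wild-type replicate 3 (2.23 CPM) was close to knockout replicate 2 (2.04 CPM). It changed by -1.11 on the log2 scale (SE 0.256, edgeR adjusted p = 1.62e-04). PCDH12, PCDH15 and PCDH20 had at most 3 counts in any non-directional library.

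Related adhesion genes were read from lists, beside 25.9% called lower and 25.5% called higher over all genes tested. Of the giant cadherins and their regulator (FAT, Dachsous, CELSR and FJX1; 9 of 10 tested), 6 were called lower and 2 higher, with a median log2 fold change of -0.26. FAT3 fell from 2.17 ± 0.314 to 0.510 ± 0.356 CPM (log2 fold change -2.09) and FAT1, a large cadherin that organizes actin at cell contacts, from 143 ± 2.13 to 69.8 ± 1.70 CPM (-1.05), while DCHS2 rose from 3.51 ± 1.04 to 8.28 ± 1.24 CPM (1.24; SD, n = 3 each). FAT3 passed the filter on low counts through the wild type only, as did CDH23 and PTK2B among the genes named next, so for these a lower knockout value was built into being tested. Among classical cadherins 6 of 19 were tested, with 4 called lower, 1 higher and a median of -0.40. The called ones were CDH6 (-1.13), CDH2 (-0.45), CDH10 (-0.34) and CDH24 (-0.33), all lower, and CDH3 (0.42), which was higher. CDH2, or N-cadherin, which pairs with PCDH19 and PCDH8 in neurons, went from 133 ± 0.879 to 97.5 ± 0.385 CPM (SD, n = 3 each). Of the CDHR genes, CDH23 and the calsyntenins, 5 of 9 were tested and CDH23 (-1.54) was called lower, with no gene called higher.

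Genes that act inside the cell with protocadherins and cadherins were read in the same way. Of 8 catenins 5 were tested, and CTNNB1 (-0.20) and JUP (-0.22) were called lower. All 13 genes of the WAVE complex and the Ena/VASP group, the actin regulators that delta2 tails recruit, were tested, with 5 called lower, 4 higher and a median of -0.05. The largest changes were those of WASF1 (-0.61), WASF3 (0.44) and VASP (0.39). Of 8 genes for cytoplasmic partners 7 were tested and 3 were called lower. These were the kinase genes PTK2B (-1.97) and PTK2 (-0.13) and the phosphatase gene PPP1CB (-0.22). In each of these lists the share of called genes stands beside 51.5% called in either direction over all genes, with 25.9% lower and 25.5% higher.

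**Figure D5:**
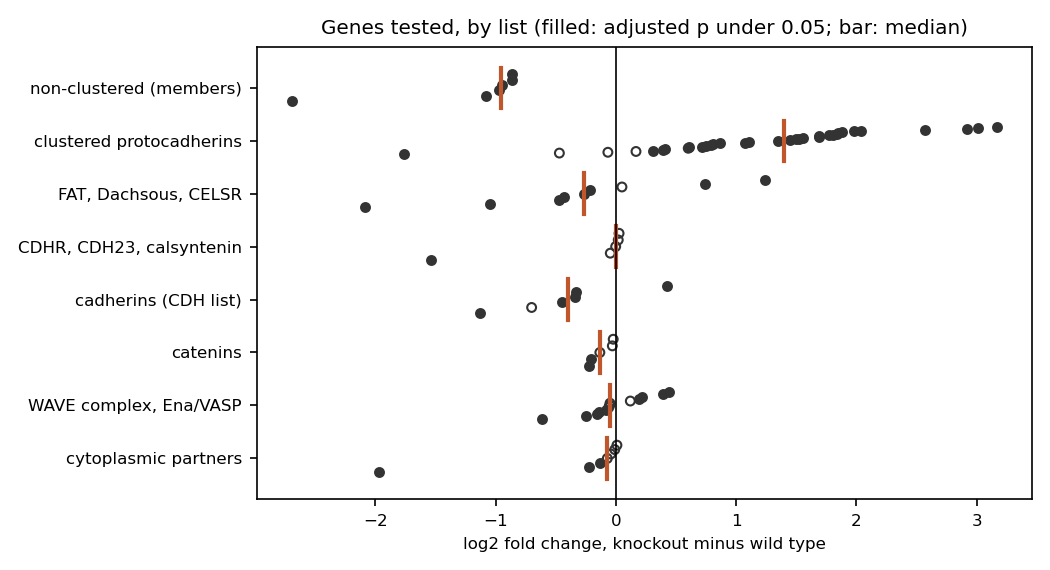
Log2 fold changes (horizontal axis, knockout minus wild type, non-directional libraries) of the tested genes of each list; filled points had an edgeR adjusted p under 0.05, open points did not, and bars are medians. The 6 tested members, 2 of which passed the filter through the wild type only, lie at -0.86 or below with a median of -0.96. Clustered protocadherins have a median of 1.40 over 34 tested genes, 16 of which passed the filter through the knockout only. Catenins, WAVE complex genes and cytoplasmic partners have medians near 0.

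Cell type markers were read beside these results. HAP1 is labelled as chronic myelogenous leukemia, yet 3 of 14 haematopoietic markers had a mean of at least 1 CPM, and CD33, MPO, SPI1, HBB, HBG1 and HBG2 were at 0 in the 6 non-directional libraries. Their summed level was 55.9 to 58.0 CPM in wild-type and 37.8 to 40.6 CPM in knockout libraries. TAL1 was called lower (-2.32, from a mean of 16.1 to 3.24 CPM), and KIT (-0.19) and RUNX1 (-0.14) were not called. Fibroblast markers (3 of 8 at 1 CPM or more, DCN and LUM at 0) went from 80.2 to 82.5 down to 38.2 to 39.5 CPM, with COL3A1 (-3.07, through the filter in the wild type only) and PDGFRA (-1.60) called lower and COL1A1 (0.16) not called. PDGFRA alone gave 59.1 CPM of that wild-type sum. Neural markers (4 of 10, ELAVL3 and ELAVL4 at 0) went from 277 to 293 down to 191 to 196 CPM, with MAP2 (-1.49) and NES (-0.59) called lower, SYT1 (0.52) higher and TUBB3 (-0.01) not called. NES alone gave 270.0 CPM of that wild-type sum. Epithelial markers (4 of 6) went from 148 to 165 up to 212 to 224 CPM, with EPCAM (3.40) and KRT8 (0.47) called higher, CLDN7 (-0.36) lower and KRT18 (-0.10) not called. These sums thus rested on few genes, the markers of a list did not all move one way, and 51.5% of all genes were called in either direction. The part of such marker changes in the members' values was not tested.

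Genes close to PCDH7 in pattern were found over 12311 protein-coding genes by the root mean square difference of centred log2 CPM over the 6 libraries. Those named here were PID1 (0.127) and KNG1 (0.156). PID1 went from 4.43 ± 0.286 to 0.703 ± 0.249 CPM and KNG1 from 11.6 ± 0.763 to 1.57 ± 0.516 CPM (SD, n = 3 each). Since both were picked for likeness to PCDH7 in these same libraries, a like fall was part of the choice. The knockout mean of PID1 lay under the 1.02 CPM of the filter. PID1 and KNG1 lie on chromosomes 2 and 3, away from PCDH7.

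In the directional libraries each member had 0 to 4 counts per library and none passed the filter, among 4745 genes tested of which 16.2% were called. Counts in genes made up 5.23 to 5.30% of listed reads there, against 80.3 to 80.4% with the non-directional kit, and the strand setting of the counting is not given in the sources used here. Directional counts can therefore not be assigned to sense transcription of the gene they are listed under. For PCDH7 wild-type libraries held 2, 1 and 1 counts and each knockout library 0, all under the floor of 3 counts. A difference between kits in the response to knockout was tested over 15832 genes, of which 1.82% were called. For PCDH1, PCDH7, PCDH9, PCDH17 and PCDH18 the edgeR adjusted p of that test lay between 0.616 and 1.00, and no unadjusted p was under 0.05. Given the low directional counts, this says little about whether the effects were alike.

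A directional readout was nevertheless found at PCDH17, and it was named after its values had been seen. The antisense gene AL445288.1 (ENSG00000278722, chr13:57632759-57633575, minus strand) has all 654 of its exon bases inside exon sequence of PCDH17. It had 0 counts in each of the 6 non-directional libraries, where 8.37 to 8.41% of listed reads were ambiguous between genes. Without the strand, a read over these shared exons cannot be assigned to AL445288.1 alone, so this 0 does not show absence. In the directional libraries wild-type replicates gave 21, 24 and 18 counts and knockout replicates 10, 11 and 8, and the groups were separate. The mean went from 34.5 ± 0.853 to 16.6 ± 2.39 CPM (SD, n = 3 each), which is 48.1% of the wild type (-1.05 on the log2 scale, SE 0.310, edgeR adjusted p = 0.00973). In that comparison 8.54% of 4745 tested genes were called lower. DESeq2 did not call AL445288.1 (adjusted p = 0.148), and over 10 alternatives the adjusted p lay between 0.01 and 0.148. In the same libraries PCDH17 itself gave 0, 0 and 3 counts in wild-type and 1, 0 and 0 in knockout replicates. Per listed read, tested genes without exon overlap on the opposite strand had a median of 0.565% of their non-directional counts in the directional libraries. For tested genes with such overlap the median was 1.43%, and PCDH17 had 0.810%. In the directional libraries 94.55 to 94.63% of listed reads were counted in no gene, and the strand setting of the counting is not given. PCDH17 changed by -0.86 on the log2 scale in the non-directional libraries. Whether the reads listed under AL445288.1 came from PCDH17 or from AL445288.1 was not tested. Their fall can therefore not be read as that of an antisense transcript.

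L1 (LINE-1) elements were a further readout at the members. Of the long L1 loci with deposited values, 1 lies within a member, an L1PA2 copy inside PCDH9 (chromosome 13, 66737483 to 66743507 as the table gives them). It held 2, 0 and 0 reads in wild-type and 0, 2 and 3 reads in knockout libraries of the non-directional kit and did not pass the filter. Among the 816 L1 loci that did, 28.4% were called by limma (232 loci, and 154 without knockout replicate 2).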

How the data were processed

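The authors deposited raw read counts per gene for 12 libraries (4 groups of 3, read from the sample titles), and a normalized signal per L1 locus for the 6 non-directional libraries. Their processing notes name Trim Galore 0.4.4, STAR 2.6.0a, SAMtools 1.9, Picard 2.23.8, HTSeq 0.11.1, DESeq2 3.14 and bedtools, with build hg38. The publication named in the header concerns mouse spleen and was not used for methods. Each kit was fitted alone with edgeR 4.0.16 in R 4.3.3: filterByExpr (minimum count 10, minimum total 15), TMM, the quasi-likelihood F-test and Benjamini-Hochberg adjustment over all genes tested, with a threshold of 0.05. Standard errors, and the 95% intervals made from them, were derived from the F statistic and are approximate. CPM is counts per 1000000 gene counts. Floors cover counting error only, whereas intervals rest on the fitted spread between libraries. Members and lists were chosen with earlier results of these data known. All members were named, with SETDB1, up to 3 called genes of largest change per list (all where 5 or fewer were called), and the 3 genes most like PCDH7, of which 1 is not reported here, but no gene of the Y chromosome. L1 values were whole reads divided by a factor per library (100% whole, within 0.01 reads). Because they are a signal, L1 loci were tested by limma 3.58.1 on log2(value + 1), which understates changes of low loci, and 232 of 816 were called (28.4%). A count test on the recovered reads, added after seeing the data, called 281. Alternatives were DESeq2 1.42.0, limma-voom, RLE scaling, other filters, a replicate block, a fit over all 12 libraries and leaving out libraries. The fits were checked on simulated counts.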

Additional observations from a re-analysis of the deposited data

How the results depend on the processing

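PCDH1 and PCDH7 were called lower under each of 15 alternatives, with log2 fold changes of -1.20 to -0.95 and -3.08 to -2.53. PCDH9 (-0.99 to -0.76), PCDH17 (-0.92 to -0.79) and PCDH18 (-1.05 to -0.84) were called lower under each except a required log2 fold change of at least 1 in size, which left 2 of the members and 1074 genes in all (498 higher, 576 lower). PCDH19 ranged from -1.24 to -0.80 and was not called by DESeq2 (adjusted p = 0.106), nor tested with a minimum of 30 counts in 3 libraries or in the fit over 12 libraries. Leaving out any library kept 6 members called lower, as did summing the knockout libraries as 1 sample. The fit over 12 libraries called 2400 genes higher and 4170 lower, against 3517 and 3572 with the non-directional libraries alone. RLE scaling changed the genes that differed between kits from 185 higher and 103 lower to 144 and 123. In the directional libraries DESeq2 called 378 genes (191 higher, 187 lower) where edgeR called 769.

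With the replicate number as a block the 6 members were called lower as without it. The block called 7074 genes with the non-directional kit and 712 with the directional kit, 263 genes for the difference between kits and 248 L1 loci. Leaving out single libraries gave 154 (without knockout replicate 2) to 228 L1 loci where 232 were called, and dropping the filter gave 14 of 6437. Deviations of libraries with the same number were not correlated (mean -0.010 and -0.0016). The non-directional knockout libraries differed by no more than sampling noise, and such noise is uncorrelated with or without pairing. Whether the numbers pair the libraries was therefore not settled. Among listed genes DESeq2 lost the calls of CDH23 (adjusted p = 0.0734), CDH24 (0.0559), PTK2 (0.0672), CLDN7 (0.228) and SYT1 (0.281), and its counts of genes called lower were 5 in place of 6 in the FAT list and 4 in place of 5 in the WAVE list. SYT1 was also lost without a filter, by limma-voom, with the knockout libraries summed, in the fit over 12 libraries and without any library but knockout replicate 3 (adjusted p 0.0536 to 0.153). CLDN7 was also lost without wild-type replicate 2 (0.274) or knockout replicate 3 (0.0954), and PTK2 without knockout replicate 1 (0.0807) or with the knockout libraries summed (0.0648). Depth limits PCDH8 and PCDH10 in the non-directional libraries. In the directional ones every member is limited by the low share of reads counted in genes. Listed reads were 10106592 to 12842195 per directional library, against 11096966 to 12684855 per non-directional library.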

Other observations

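PCDH12, an endothelial protocadherin, gave 3, 2 and 1 counts in wild-type and 3, 3 and 2 counts in knockout libraries of the non-directional kit. PCDH15, a protein of hair cell tip links, gave 1 count in 1 knockout library, and PCDH20 gave 1 count in 1 wild-type library.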
